A study of Mus musculus with 13 samples.

Results

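The cells described here are Otx2-positive neural progenitors of mouse embryos, taken from 3 single-cell libraries of wild-type C57Bl/6J embryos: 1 library of E8.5, called replicate 2, and 2 libraries of E10.5. A barcode, which stands for a droplet with 1 cell, was taken when it held at least 2000 UMIs (unique molecular identifiers, each counting 1 captured transcript) and 500 genes, at least 1 UMI of Sox2, at least 2 of Otx2, no more than 2 of Epcam and no more than 3 of Elavl3 and Stmn2 together. This gave 384 barcodes in the E8.5 library, 768 in E10.5 replicate 1 and 760 in E10.5 replicate 2, in all 1912 of 76191 barcodes that passed the UMI and gene limits in 10 matrices of embryos and hearts. They were compared within each library with the Sox2-positive barcodes that held no Otx2 UMI and met the same limits on Epcam, Elavl3 and Stmn2, of which there were 1268, 4199 and 3863. No gene was altered and no treatment was given in any group. The study was made for the cardiac conduction system, and by its protocol the head and limbs were cut off before digestion. How much tissue of the anterior neural tube stayed with the trunk is not given. The labels name 1 collection of embryos per library and do not say how many embryos were pooled or whether the E10.5 libraries came from separate embryos, so p-values measure the spread between 2 libraries, which may be technical. The other E8.5 replicate was not used here.

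Otx2 is a homeodomain transcription factor that marks the future forebrain and midbrain of the neural tube, and its posterior limit lies at the boundary between midbrain and hindbrain, where Gbx2 is made on the hindbrain side. Sox2 is a transcription factor of neural progenitors along the whole neural tube. Within the Otx2 territory, Six3 and Lhx2 belong to the forebrain and eye field, and En1, Pax5 and Wnt1 to the midbrain and the isthmus, an organizing centre that releases Fgf8. The neural tube behind the boundary is patterned by Hox genes, which respond to retinoic acid.

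Since Otx2, Sox2, Epcam, Elavl3 and Stmn2 chose the cells, their levels are given as a description. A level here is the number of UMIs of a gene in the summed counts of a group of barcodes, per 1000000 UMIs of that sum (CPM). Otx2 stood at 145 CPM in the E8.5 progenitors and at 176 and 172 CPM in those of E10.5. The median barcode held 4 Otx2 UMIs at E8.5 and 3 in each E10.5 library, with maxima of 17, 19 and 14. Just inside the limit were 69, 251 and 248 barcodes with 2 Otx2 UMIs, and just outside it 99, 407 and 447 with 1. Sox2 stood at 110 CPM at E8.5 and at 235 and 228 CPM at E10.5, against 114, 214 and 202 CPM in the barcodes without Otx2. The limits on Epcam and on the neuron genes removed 46 and 52 otherwise fitting barcodes at E8.5, 35 and 78 in replicate 1 and 49 and 77 in replicate 2 of E10.5, not counting those that broke both limits.

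The Otx2-positive progenitors made up 6.79% of the barcodes at E8.5 (exact 95% binomial interval 6.15 to 7.47%) and 5.24% (4.88 to 5.61%) and 5.32% (4.96 to 5.70%) at E10.5. The intervals cover counting error only. The E10.5 libraries lay within each other's interval, and E8.5, with 1 library, enters no test. None of the 41586 barcodes of the 7 heart matrices met the rule. A count of 0 allows a share of up to 0.0297% of the barcodes in the largest heart matrix and up to 0.0695% in the smallest, and the Otx2 UMIs there came to no more than 5 in a matrix, with none at E16.5 or P3. Free RNA in the droplets can place an Otx2 UMI in other cells. Among endothelial barcodes, with a UMI of Pecam1 and of Cdh5 and none of Sox2, 2.88, 2.28 and 2.37% held an Otx2 UMI at median depths of 31630, 19780 and 21145 UMIs. Among Sox2-positive barcodes the shares were 28.6, 22.3 and 23.9% at median depths of 28108, 16256 and 16711 UMIs. With 2 or more Otx2 UMIs the endothelial shares were 1.44, 0.855 and 0.296%. Among erythroid barcodes, with over 10% globin UMIs, 0 of 77 (upper end of the exact 95% binomial interval 4.68%), 3.29% and 3.88% held an Otx2 UMI, and 0, 0 and 0.862% held 2 or more.

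The 3 embryo libraries held 151735273, 259041468 and 254118869 UMIs, of which 95.2, 91.4 and 91.5% lay in barcodes over the limits. The progenitors were deeper than the barcodes without Otx2, with median UMIs of 33410, 19945 and 20745 against 26024, 15012 and 15649. A deeper barcode is more likely to reach 2 Otx2 UMIs, and the comparison was therefore also run with every barcode drawn down to 5000 UMIs. The rule was then applied to the drawn counts with 1 Otx2 UMI as the limit, so that both groups were chosen anew. Scrublet, a doublet caller, marked 7.55, 15.8 and 13.4% of the progenitors and between 5.13 and 12.7% of the barcodes without Otx2. The E10.5 libraries shared 263 barcode sequences, where 284 are expected from independent draws, and 1 of them was a progenitor in both.

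The 2 further markers of these cells, Six3 and Lhx2, were higher in the progenitors in all 3 libraries. Six3, a homeodomain factor of the anterior forebrain and eye, stood at 59.8 CPM at E8.5 (exact Poisson 95% interval 55.7 to 64.1, counting error only) and at 47.6 and 55.3 CPM at E10.5. Without Otx2 it stood at 3.28 CPM (2.71 to 3.94), 12.4 and 13.2 CPM. The E10.5 difference was 1.99 ± 0.08 (SE) on the log2 scale (n = 2 libraries per group, edgeR's quasi-likelihood test, Benjamini-Hochberg adjusted p = 3.5e-07). Here and below, the SE was derived from the log2 fold change and the F statistic of that test. Lhx2, a LIM homeodomain factor of the cerebral cortex and the eye, stood at 69.6 CPM at E8.5 and at 72.2 and 62.7 CPM at E10.5, against 3.91, 25.2 and 23.2 CPM without Otx2. Its difference at E10.5 was 1.46 ± 0.06 (adjusted p = 5.3e-07, edgeR). For both genes the groups did not overlap, but the share of all tested genes with such a separation was not counted. The barcodes without Otx2 held several times more of each at E10.5 than at E8.5. These levels describe the label of anterior neural progenitors and are no independent support for it. Otx2 and Sox2 chose the cells, and the markers were named with earlier results of these data known. The label does not hold for every cell by these 2 genes. At 5000 UMIs per barcode Six3 was seen in 22.7, 17.7 and 18.1% of the progenitors and Lhx2 in 22.5, 19.1 and 18.0%.

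Over all genes at E10.5, 14199 passed edgeR's filter on low counts. Of these 1767 (12.4%) were higher and 1668 (11.7%) lower in the Otx2-positive progenitors, and 334 (2.35%) were higher and 642 (4.52%) lower by at least 2-fold. The median log2 fold change over all genes tested was -0.01. With all barcodes drawn down to 5000 UMIs and any drawn Otx2 UMI as the limit, 237 were higher and 302 lower. Of these, 224 and 277 were among those above. Progenitors that kept no Otx2 UMI in the draw then counted as without Otx2, so depth was not the only change. On the full counts DESeq2 called 997 and 899. E8.5 was not in the fit. Of all 3435 genes that passed, 2822 (82.2%) had a ratio of the same sign there, and of the 976 with a change of at least 2-fold 868 did (88.9%).

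**Figure D1:**
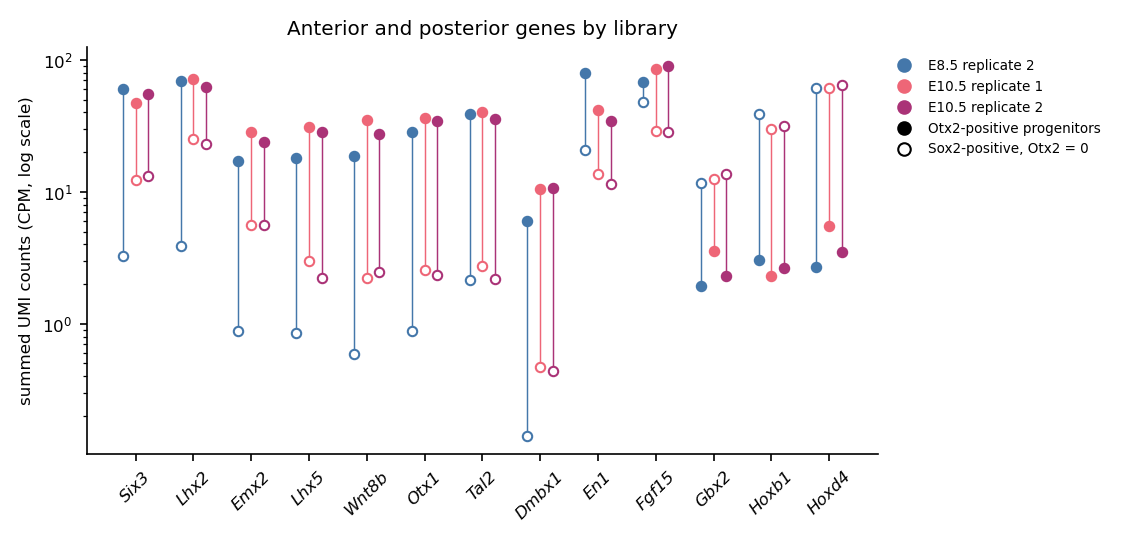
Levels of forebrain, midbrain and hindbrain genes in summed UMI counts (CPM, log axis) for each library, with filled circles for the Otx2-positive progenitors, open circles for Sox2-positive barcodes without Otx2 and a line joining the groups of 1 library. The filled circles lie above the open ones from Six3 to Fgf15 and below them for Gbx2, Hoxb1 and Hoxd4 in all 3 libraries.

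The forebrain genes rose together. Of 15 genes on a list of forebrain regulators, all tested, 14 were higher and none lower, 11 of them by at least 2-fold, with a median log2 fold change of 1.99. At E8.5 the same 14 had ratios above 0. Barhl2, a homeodomain factor of the diencephalon, had the largest difference on the list, with 3.57 CPM at E8.5 and 13.2 and 15.9 CPM at E10.5 against 0.142, 0.353 and 0.422 CPM (log2 fold change 5.20 ± 0.17, adjusted p = 1.2e-07). Lhx5, a LIM homeodomain factor of the forebrain, stood at 18.1, 30.9 and 28.6 CPM against 0.849, 2.98 and 2.23 CPM (3.49 ± 0.11, adjusted p = 9.4e-08). Nkx2-1, which marks the hypothalamus and the ventral telencephalon, stood at 2.60, 12.8 and 19.0 CPM against 0.255, 2.19 and 1.52 CPM (3.07 ± 0.21). Emx2, Fezf1 and Fezf2, which act in the cortical and anterior forebrain field, rose by 2.20, 2.28 and 2.02 on the log2 scale. Sp8 and Foxd1 passed the test with small differences, 0.31 ± 0.08 and 0.28 ± 0.09 with adjusted p of 0.025 and 0.050. Under 17 alternative settings of the comparison Sp8 lost its call in 7 and Foxd1 in 11. The one member that did not pass was Hesx1, a repressor of the early anterior forebrain, with 0.767 and 0.404 CPM against 0.410 and 0.708 CPM at E10.5. Hesx1 stood at 12.4 CPM in the E8.5 progenitors against 1.53 CPM without Otx2.

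Optic genes were higher as well. Of 7 genes, all tested, 6 were higher and none lower. Rax and Six6, which are made in the eye field and later in retina and hypothalamus, stood at 23.9 and 25.7 CPM in the E8.5 progenitors. At E10.5 Rax stood at 9.68 and 10.7 CPM and Six6 at 8.85 and 10.9 CPM, and their differences from the barcodes without Otx2 were 1.58 ± 0.11 and 0.81 ± 0.12. Vax1, a factor of the ventral optic region, had no UMI at E8.5 in either group and stood at 1.89 and 1.10 CPM against 0.565 and 0.648 CPM at E10.5 (log2 fold change 1.27 ± 0.30). Mitf, a regulator of the pigmented epithelium, stood at 3.42, 2.42 and 2.60 CPM against 0.821, 1.02 and 1.37 CPM. Pax6, the member that did not pass, is made in the eye and forebrain but also in spinal cord progenitors, and it stood at 109 and 114 CPM against 106 and 109 CPM at E10.5 and at 140 CPM (133 to 146) against 121 CPM (118 to 125) at E8.5, with exact Poisson 95% intervals.

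The midbrain genes moved less evenly. Of 15 genes of the midbrain and isthmus, all tested, 10 were higher, 2 lower and 3 did not pass, with a median of 0.55. Dmbx1 and Tal2, factors of the dorsal midbrain and of its GABAergic progenitors, were the highest. Dmbx1 stood at 6.02, 10.6 and 10.7 CPM against 0.142, 0.466 and 0.437 CPM (4.53 ± 0.15), and Tal2 at 38.7, 40.5 and 35.7 CPM against 2.15, 2.73 and 2.20 CPM (3.92 ± 0.10, adjusted p = 2.7e-08). En1, which patterns the midbrain and the isthmus, stood at 80.02, 42.0 and 34.4 CPM against 20.9, 13.6 and 11.5 CPM (1.58 ± 0.09). Pax5 rose by 1.42 and Cnpy1 by 1.24 on the log2 scale. Fgf8 and Wnt1, signals of the isthmus and the dorsal midline, passed with smaller differences at E10.5. Fgf8 stood at 14.9 CPM at E8.5 against 18.0 CPM without Otx2, and at 28.9 and 24.1 CPM against 18.5 and 17.0 CPM at E10.5 (0.55 ± 0.08), and Wnt1 at 12.3 CPM against 4.27 CPM at E8.5 and at 13.6 and 16.6 CPM against 12.2 and 9.31 CPM at E10.5 (0.47 ± 0.14, adjusted p = 0.038). Pax3 and Meis2, which are made along much of the dorsal neural tube and in many other tissues, were lower, by -0.63 ± 0.04 and -0.57 ± 0.04. Pax2, Pax8 and Pax7 did not pass, with log2 fold changes of 0.20, 0.17 and -0.17.

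By the rule for leading genes (the 12 largest changes in each direction with at least 20 CPM in the higher group of both E10.5 libraries), the list of higher genes opened with Trh, Tal2, Otx1, Wnt8b and Lhx5. Trh, the precursor of thyrotropin-releasing hormone, stood at 62.7, 35.8 and 29.7 CPM against 2.29, 1.81 and 2.41 CPM (log2 fold change 3.94 ± 0.13, adjusted p = 1.1e-07). Otx1, the paralog of Otx2, stood at 28.6 CPM at E8.5 and at 36.3 and 34.6 CPM at E10.5, against 0.877, 2.57 and 2.34 CPM (3.83 ± 0.08, adjusted p = 9.4e-09). Wnt8b, a Wnt ligand of the dorsal forebrain, stood at 18.7, 34.8 and 27.3 CPM against 0.594, 2.22 and 2.47 CPM (3.71 ± 0.12). No library of one group overlapped the other for any of the 3, a separation whose share over all tested genes was not counted. They were followed by Ehbp1, Mab21l2, Cntnap2, Pcp4l1, Pou3f1, Rspo3 and Emx2, with fold changes between 9.83 for Ehbp1 and 4.61 for Emx2. Ehbp1 lies on the same strand as Otx1 on chromosome 11 with 2930 bases between them (GENCODE annotation of GRCm38, chr11:21994764-22002897 for Otx1 and chr11:22005828-22342292 for Ehbp1), and whether reads of one gene were counted for the other was not tested. Otx2os1, a long noncoding RNA on the opposite strand that overlaps Otx2 by 5112 bases, stood at 3.35, 7.14 and 6.12 CPM against 0.142, 0.268 and 0.271 CPM. Since it shares sequence positions with the gene that chose the cells, and the counting by strand is not given in the sources used here, its value is uncertain.

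**Figure D2:**
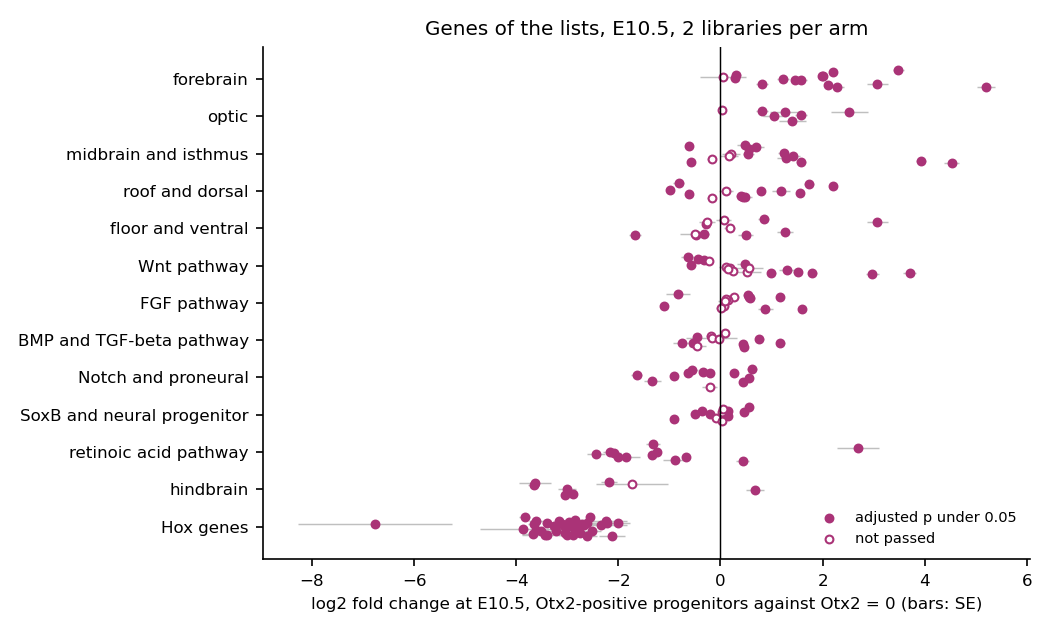
Log2 fold change at E10.5 of the Otx2-positive progenitors against Sox2-positive barcodes without Otx2 for the tested genes of 13 lists, with 1 point per gene and its SE as a bar, filled where the adjusted p was under 0.05. The forebrain genes lie to the right of 0 and the Hox genes to the left, and Hoxc12, the point farthest to the left, held no UMI in either sum of progenitors, so that its fitted value depends on the prior count.

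On the other side, all tested Hox genes were lower. Of the 39 Hox genes in the matrix 37 were tested, and all 37 were lower, each by at least 2-fold, with a median of -3.00 (-2.98 with Hoxc12 at its bound). The 36 with UMIs in the progenitors lay between -2.02 and -3.87. Hoxc12 held no UMI in the progenitors and was at least 3.58-fold lower, taking 3 UMIs over both libraries as the limit. Some of the 37, among them Hoxc12, Hoxc13, Hoxa6 and Hoxc11, held at most 0.18 CPM in the E10.5 progenitors, and Hoxd13 held 0.177 and 0.231 CPM. They passed the low-count filter only through the barcodes without Otx2, so their direction was fixed by that filter. Hoxa11, Hoxd1 and Hoxd12 were as low in 1 of the 2 progenitor sums, at 0.231, 0.059 and 0.059 CPM. They too needed the barcodes without Otx2 to pass that filter. All these genes are counted in the 37 and in the median. Hoxb1, a marker of the fourth hindbrain segment, stood at 3.05, 2.30 and 2.66 CPM against 38.9, 30.2 and 31.7 CPM (-3.66 ± 0.10, adjusted p = 4.6e-08). Hoxd4, which is made from the posterior hindbrain backwards, stood at 2.68, 5.49 and 3.52 CPM against 60.9, 61.4 and 65.0 CPM (-3.83 ± 0.11). Hoxb9, a gene of the thoracic level, stood at 3.27, 5.01 and 8.61 CPM against 39.6, 79.2 and 85.3 CPM. The 12 leading lower genes were 9 Hox genes, the antisense transcripts Hoxaas3 and Hoxb5os, whose reads may not be separable from those of their neighbours, and Msx3, a dorsal factor of hindbrain and spinal cord, at 4.16, 7.32 and 9.01 CPM against 63.3, 96.7 and 94.3 CPM (-3.57 ± 0.07). At 5000 UMIs, 2.87, 6.06 and 5.56% of the progenitors held 2 or more Hox UMIs, against 54.3, 62.2 and 63.3% of the barcodes without Otx2.

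Other genes behind the boundary followed. Of 8 hindbrain genes, all tested and 4 of them Hox genes, 6 were lower, 1 was higher and 1 did not pass. Gbx2, which opposes Otx2 at the boundary between midbrain and hindbrain, stood at 1.93, 3.54 and 2.31 CPM against 11.6, 12.504 and 13.7 CPM (-2.19 ± 0.15, adjusted p = 1.2e-05). Of 8 tailbud genes 6 were tested and 5 were lower, among them Cdx2 by -4.45 ± 0.29 and T, the mesoderm factor brachyury, by -2.91 ± 0.32. Cdx2, Cdx4 and Nkx1-2 passed the low-count filter only through the barcodes without Otx2. Tbx6 did not pass.

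Most genes of the retinoic acid pathway were lower. Of 13 genes 12 were tested, and 10 were lower and 2 higher. The receptors Rara, Rarb and Rarg were lower by -1.33, -2.17 and -1.32 on the log2 scale. The binding proteins Crabp1 and Crabp2 were lower as well, and Crabp1 stood at 228, 221 and 290 CPM against 2321, 998 and 1020 CPM (-2.001 ± 0.10). Of the synthetic enzymes, Aldh1a2, which makes retinoic acid in the mesoderm of the trunk, stood at 4.61, 2.18 and 2.71 CPM against 13.4, 9.69 and 10.9 CPM (-2.09 ± 0.15). The other 2 were the genes that rose. Aldh1a1, an enzyme of the dorsal eye, stood at 0.818, 2.48 and 4.10 CPM against 0.0849, 0.268 and 0.738 CPM (2.70 ± 0.41). Aldh1a3, an enzyme of the ventral eye and the forebrain, stood at 13.5, 16.05 and 19.9 CPM against 8.29, 11.9 and 14.4 CPM (0.43 ± 0.13, adjusted p = 0.037). The degrading enzymes Cyp26a1 and Cyp26b1 fell by 1.84 and 2.45 on the log2 scale. All 12 had a ratio of the same sign at E8.5.

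Among Wnt genes, 7 of 18 were higher, 4 lower and 7 did not pass. The higher ones were the ligands Wnt8b, Wnt7b, Wnt5b and Wnt1, the R-spondin Rspo2, the inhibitor Dkk1 and the target Sp5. Wnt7b stood at 10.0, 19.6 and 19.2 CPM against 0.538, 6.29 and 7.10 CPM (1.52 ± 0.09). Sp5 stood at 18.7, 22.7 and 25.2 CPM against 8.21, 6.37 and 7.20 CPM (1.80 ± 0.09), while the targets Axin2 and Lef1 did not pass, with 0.19 ± 0.07 and 0.25 ± 0.08. The secreted inhibitors Sfrp1 and Sfrp2, the ligand Wnt4 and the receptor Fzd10 were lower, by -0.45, -0.57, -0.65 and -0.33. On the list of roof plate and dorsal genes, 13 of 14 were tested, 8 were higher and 3 lower. Rspo3, a secreted amplifier of Wnt signals, stood at 25.7, 113 and 101 CPM against 19.9, 22.8 and 23.0 CPM (2.21 ± 0.05, adjusted p = 1.6e-08), and Rspo1 at 13.8, 50.7 and 54.6 CPM against 2.66, 17.7 and 17.5 CPM (1.56 ± 0.06). The zinc finger genes Zic1, Zic2 and Zic5 rose by 0.80, 0.41 and 0.44, of which Zic2 turned to -0.031 at 5000 UMIs. Msx1, Msx2 and Pax3 were lower.

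At E10.5 the ligands of the FGF pathway that were listed were higher. Of its 14 genes 6 were higher, 2 lower and 6 did not pass. Fgf15, a ligand of the dorsal neural tube and forebrain, stood at 68.3, 85.8 and 90.8 CPM against 48.3, 28.8 and 28.7 CPM (1.60 ± 0.05, adjusted p = 5.7e-08). Fgf8, Fgf17 and Fgf18 were higher at E10.5 by 0.55, 0.55 and 0.88, whereas at E8.5 Fgf17 stood at 8.9985 against 20.6 CPM and Fgf18 at 1.93 against 2.18 CPM, and Fgf8, given above, was likewise not higher there. Also higher at E10.5 were the feedback inhibitor Spry1 (1.17 ± 0.07) and the target Etv1 (0.58 ± 0.10). The receptor Fgfr3, which stood at 8.08 and 8.20 CPM against 18.1 and 16.6 CPM, and Spry4 were lower. Fgfr1, Fgfr2, Etv4, Etv5, Spry2 and Dusp6 did not pass.

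Of 12 genes of the floor plate and the Sonic hedgehog pathway 4 were higher, 4 lower and 4 did not pass. Shh itself, the ventral signal, stood at 3.20, 14.9 and 18.8 CPM against 2.01, 9.78 and 8.74 CPM (0.84 ± 0.11), and Foxa1 rose by 1.27. Nkx6-1, a factor of ventral progenitors of hindbrain and spinal cord, was lower at 7.07, 8.20 and 7.28 CPM against 19.4, 26.6 and 21.9 CPM (-1.67 ± 0.12). The receptor and target Ptch1 was lower by -0.28 ± 0.06, but had a log2 fold change of 0.0041 at 5000 UMIs, and Gli1 and Hhip did not pass. Of 12 BMP and TGF-beta genes 4 were higher (Bmp7, Id3, Nog and Fst), 3 lower (Bmpr1b, Id1 and Smad7) and 5 did not pass. Nog, an antagonist of BMPs, stood at 6.69, 13.6 and 13.0 CPM against 5.18, 6.19 and 5.42 CPM.

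At E10.5 general progenitor genes differed by less than 2-fold. Of 12 genes of the SoxB group and of neural progenitors 4 were higher and 4 lower, with a median of 0.03. Sox1 and Sox21 rose by 0.46 and 0.57, and Notch1, the receptor that holds progenitors undifferentiated, was lower by -0.90 ± 0.05. Nes and Fabp7, which are made in radial progenitors, did not pass. At E8.5 Nes stood at 15.6 CPM against 33.9 CPM and Fabp7 at 16.1 CPM against 43.0 CPM. Of 12 Notch and proneural genes 4 were higher and 7 lower. Neurog2, a proneural factor, stood at 6.17, 12.1 and 9.12 CPM against 13.2, 30.8 and 34.1 CPM (-1.64 ± 0.11), and Neurod1, which follows it in neurons, was lower by -1.33 ± 0.16. The limit on Elavl3 and Stmn2 held in both groups as a fixed UMI count, which is stricter for the deeper progenitors. Its part in the lower Neurog2 and Neurod1 was not tested. Of 15 cell cycle genes 5 were higher and 1 lower, none by 2-fold, and Cdk1, which drives entry into mitosis, had the largest difference at 162 and 179 CPM against 124 and 126 CPM (0.43 ± 0.05). Of 7 epiblast genes 3 were tested and Dnmt3b was higher (0.29 ± 0.08).

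Markers of most other tissues were at lower summed levels in the progenitors than in the barcodes without Otx2, with neuron markers at E8.5 as an exception and endoderm markers as another that rested on Trh. All 7 neural crest markers were lower, and their summed level was 18.6 to 42.6 CPM in the progenitors of the 3 libraries against 60.7 to 112 CPM. Foxd3 passed the low-count filter only through the barcodes without Otx2. All 7 mesenchyme markers were lower (19.0 to 70.8 against 46.5 to 136 CPM) and all 5 endothelial markers (34.7 to 35.7 against 55.4 to 73.2 CPM), of which Egfl7 held most. All 7 erythroid markers were lower as well, with 498 to 1158 CPM against 2060 to 4591 CPM, and the progenitors of the E10.5 libraries differed from each other. Hba-a1 and Hba-a2 are near-identical copies, and reads could be split between them. Cardiomyocyte markers, 4 of 7 lower, came to 43.7 to 134 CPM against 153 to 252 CPM. Neuron markers, 5 of 7 lower and Tubb3 higher at E10.5, came to 34.3 CPM against 24.8 CPM at E8.5 and to 44.4 and 42.4 CPM against 61.2 and 59.4 CPM at E10.5. At 5000 UMIs the log2 fold change turned to 0.059 for the mesenchyme marker Prrx1, to 0.12 for the surface ectoderm marker Dlx5 and to 0.094 for the endoderm marker Foxa2. The sign for Tubb3 turned at 5000 UMIs too, with a log2 fold change of -0.17, and without the limits on Epcam and the neuron genes in the barcodes without Otx2, with -0.95. Surface ectoderm markers, 4 of 9 lower, came to 32.9 to 36.5 against 44.3 to 45.7 CPM, with Grhl3 at 0 at E8.5. Of 8 endoderm markers 4 were lower and Trh, described above, was higher, and their sum was higher in the progenitors of each library, at 79.5, 58.3 and 49.0 CPM against 52.6, 44.8 and 40.3 CPM. Without Trh the sum of the other 7 was lower in each library, at 16.8, 22.6 and 19.3 CPM against 50.3, 43.0 and 37.9 CPM. The part of such RNA in the differences was not tested. Without barcodes holding a UMI of Sox10 or Foxd3 there were 1650 higher and 1643 lower genes, of which 1580 and 1505 were among those of the full comparison. Without barcodes marked as doublets there were 1749 and 1797, of which 1602 and 1508 were among them.

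The progenitors differed among themselves in their regional genes. To compare single barcodes at 1 depth, each was drawn down to 5000 UMIs, which left out 1, 9 and 5 progenitors. A barcode was then assigned by its UMIs over 9 forebrain genes (among them Six3, Six6, Rax, Hesx1, Lhx2, Emx2, Fezf1 and Fezf2) and over 7 midbrain genes (En1, En2, Pax5, Pax8, Wnt1, Dmbx1 and Tal2), with 2 UMIs as the limit for each list. In E8.5, 116 of 383 held the forebrain list alone (30.3%, exact 95% binomial interval 25.7 to 35.2%), 68 the midbrain list alone (17.8%, 14.1 to 22.0%) and 1 both. In replicate 1 of E10.5, 194 of 759 held the forebrain list alone (25.6%, 22.5 to 28.8%), 127 the midbrain list alone (16.7%, 14.1 to 19.6%) and 2 both, and in replicate 2 the numbers were 195, 112 and 3 of 755. The remaining 198, 436 and 445 reached neither limit. Forebrain barcodes outnumbered midbrain barcodes in each library at this depth and limit. Without drawing down, 52.9, 39.8 and 40.8% held the forebrain list and 51.6, 36.3 and 35.0% the midbrain list, alone or together, and 56 of 384 (14.6%), 26 of 768 (3.39%) and 23 of 760 (3.03%) held both. With 1 UMI as the limit and no drawing down the order turned, with 62.2, 48.3 and 47.9% for the forebrain list and 63.0, 52.1 and 49.3% for the midbrain list, and 28.4, 12.9 and 11.6% held both. The lists were not confined to the progenitors. At 5000 UMIs and a limit of 2 UMIs, 23 of 1247 (1.84%), 268 of 3877 (6.91%) and 231 of 3579 (6.45%) barcodes without Otx2 held the forebrain list. Of the same barcodes 58 (4.65%), 183 (4.72%) and 139 (3.88%) held the midbrain list.

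Single pairs of genes were counted at 5000 UMIs as well. Six3 was seen in 87 progenitors at E8.5 and in 134 and 137 at E10.5, and En1 in 70, 85 and 77. Both were seen in 0, 0 and 5 barcodes. For the Six3 barcodes of E8.5 and of replicate 1 a count of 0 allows a share with En1 of up to 3.45 and 2.24%, and in replicate 2 the share was 3.65%, while 23.6, 13.6 and 11.7% of the progenitors without Six3 held En1. Lhx2, by contrast, was seen in 55.2, 52.2 and 48.2% of the Six3 barcodes and in 11.3 to 12.8% of the others. Tal2 was seen in 31.4, 27.1 and 29.9% of the En1 barcodes and in 12.46, 13.8 and 12.8% of those without En1.

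The forebrain-list and midbrain-list barcodes also differed in genes that did not assign them, for which full counts were summed within each class and library. Of 3979 genes with at least 20 CPM in a class in all 3 libraries, 12 (0.302%) were at least 2-fold higher in the forebrain class in each library and 31 (0.779%) in the midbrain class. These are values with no test. Pax6, which did not pass the test between all progenitors and barcodes without Otx2, stood at 223, 140 and 154 CPM in the forebrain class against 10.9, 16.6 and 33.9 CPM in the midbrain class. Shisa2, which holds back Wnt and FGF receptors, stood at 56.3, 48.2 and 62.0 CPM against 2.72, 2.37 and 5.22 CPM. The imprinted neighbours Dlk1 and Meg3 were both on the forebrain side, Dlk1 at 77.4, 403 and 432 CPM against 9.07, 70.4 and 50.9 CPM. Dmrta2, a regulator of the cortical field, Sox9, Fzd2 and Epha4 were there too.

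On the midbrain side Trh stood at 165, 189 and 131 CPM against 9.58, 1.11 and 0.896 CPM, so that the first of the leading genes was higher in the midbrain class. Hes3, a repressor that holds isthmus progenitors back from becoming neurons, stood at 114, 91.8 and 110 CPM against 3.93, 0.222 and 2.02 CPM. Irx3 and Irx5, Iroquois factors of the neural tube behind the anterior forebrain, stood at 41.3, 85.8 and 99.6 CPM and at 31.7, 78.7 and 77.4 CPM, against no more than 6.44 CPM in the forebrain class. Pcp4l1, Efna2, Nkx6-2, Pou3f2, Wls, which is needed to secrete Wnt proteins, and the Wnt targets Axin2, Sp5 and Nkd1 were also on this side. So were Fgf15 and the progenitor gene Fabp7.

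Genes named above were set side by side in the classes as well. Otx2 itself stood at 138, 153 and 154 CPM in the forebrain class and at 168, 212 and 217 CPM in the midbrain class. Otx1 stood at 12.8 against 38.5 CPM at E8.5 and at 34.2 against 33.6 and 33.4 against 26.5 CPM at E10.5. Wnt8b stood at 18.7, 63.1 and 39.9 CPM in the forebrain class against 6.35, 2.37 and 4.78 CPM, and Lhx5 at 19.7, 54.2 and 42.3 CPM against 5.89, 3.56 and 1.74 CPM. Barhl2 was highest in the barcodes of neither class, at 5.88, 20.8 and 24.0 CPM against no more than 3.81 CPM in the other classes. Irx3, at 34.6, 75.2 and 80.04 CPM, and Pax6, at 132, 119 and 114 CPM, were both present there.

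**Figure D3:**
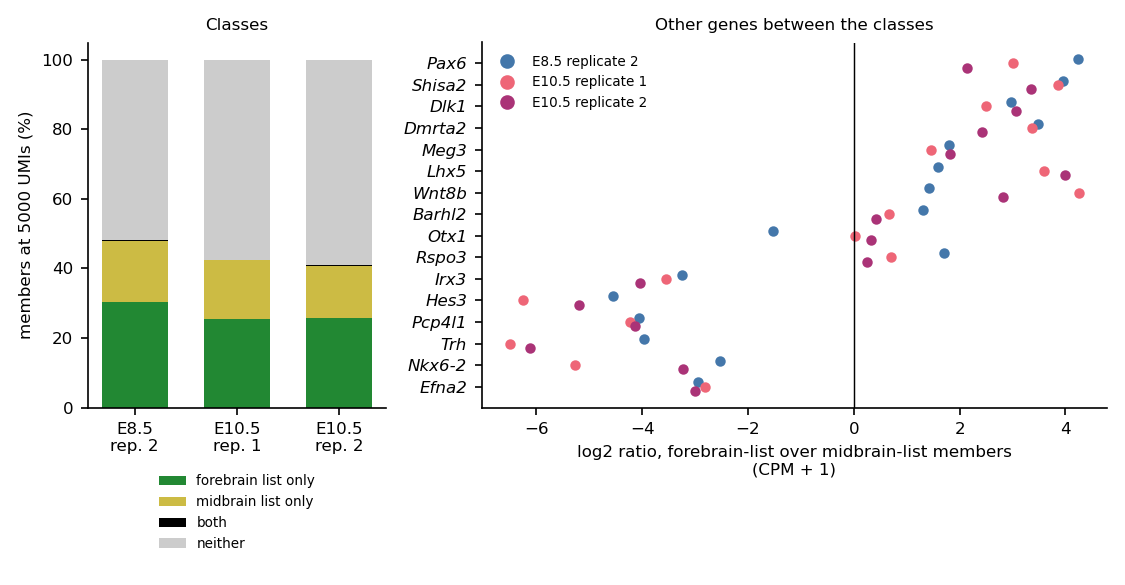
Left, percentage of Otx2-positive progenitors at 5000 UMIs that held at least 2 UMIs of the forebrain list alone, the midbrain list alone, both or neither, per library. Right, log2 ratio of summed levels (CPM + 1) between forebrain-list and midbrain-list progenitors for genes that did not assign the classes, with 1 point per library; Pax6 to Meg3 lie right of 0 and Irx3 to Efna2 left of 0 in all 3 libraries, and Otx1 lies on both sides.

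The regional genes differed with the number of Otx2 UMIs in a barcode. These values have no test. Over the progenitors, the summed level of the 9 forebrain genes was lower in barcodes with 5 or more Otx2 UMIs than in those with 2, going from 289 to 198 CPM at E8.5, from 281 to 179 CPM in replicate 1 and from 271 to 152 CPM in replicate 2 of E10.5. Barcodes with 1 Otx2 UMI, which are not members, stood at 260, 359 and 331 CPM. The summed level of the 7 midbrain genes went the other way over the same range, from 133 to 183 CPM at E8.5 and from 81.7 to 150 CPM in replicate 2, and stood at 131 and 126 CPM in replicate 1. At E10.5 Lhx2 went from 107 to 51.7 CPM and from 86.8 to 37.4 CPM, while at E8.5 it stood at 65.7 CPM with 2 Otx2 UMIs, at 81.1 CPM with 3 or 4 and at 62.7 CPM with 5 or more. Otx1 went from 28.7 to 31.1 CPM at E8.5 and from 32.7 to 40.8 CPM and 29.5 to 38.4 CPM at E10.5. The Hox genes together stood at 593, 874 and 905 CPM without Otx2, at 301, 241 and 195 CPM with 1 Otx2 UMI and between 48.2 and 138 CPM with 2 or more. Depth was higher with more Otx2 UMIs, from a median of 24610 to 36628 UMIs at E8.5 and from 16729 to 24722 and 18712 to 25044 UMIs at E10.5, and its part in these trends was not tested.

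**Figure D4:**
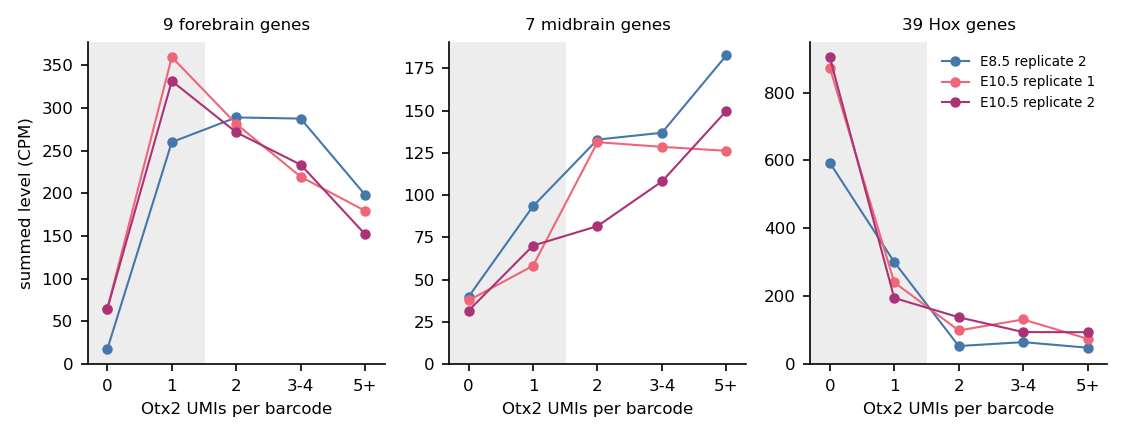
Summed level (CPM) of 9 forebrain genes, 7 midbrain genes and 39 Hox genes in Sox2-positive barcodes grouped by their number of Otx2 UMIs, per library, with the grey area marking barcodes that are not Otx2-positive progenitors. Hox levels fall from the barcodes without Otx2 to those with 2 UMIs, and forebrain levels fall among the progenitors toward 5 or more.

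Between the stages, the E10.5 progenitors were set beside those of E8.5 as values with no test, since E8.5 had 1 library and its barcodes were deeper. Of 2381 genes with at least 50 CPM at either stage, 77 (3.23%) were at least 2-fold higher in both E10.5 libraries and 11 (0.462%) at least 2-fold lower. Ratios are log2 of CPM plus 1. Ckb, a creatine kinase of brain, stood at 27.9 CPM at E8.5 and at 366 and 345 CPM at E10.5 (log2 ratios 3.67 and 3.58). Fabp7, a fatty acid binding protein of radial glia, stood at 16.1, 139 and 131 CPM. Vim, the intermediate filament of neural progenitors, stood at 106, 531 and 512 CPM. H1fx, Plagl1, Aes, Akirin2, Ppp1r14b, Basp1 and Mt2 completed the 10 with the largest ratios. In the barcodes without Otx2, Ckb stood at 74.8, 449 and 415 CPM and Fabp7 at 43.0, 143 and 138 CPM, so that these genes were higher at E10.5 there as well, with ratios between 1.66 and 2.57.

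The genes lower at E10.5 were led by Car4, a membrane carbonic anhydrase, at 148 CPM at E8.5 and 23.5 and 27.1 CPM at E10.5. Ifitm1 stood at 73.7, 14.9 and 13.4 CPM. Nr6a1 and Lin28a, regulators that decline as the embryo leaves its early stages, stood at 51.4, 13.3 and 12.4 CPM and at 123, 39.5 and 40.9 CPM. In the barcodes without Otx2 their log2 ratios were -1.86 and -1.84 for Nr6a1 and -1.61 and -1.60 for Lin28a, close to -1.88 and -1.97 and to -1.62 and -1.57 in the progenitors. Wfdc2 stood at 173, 69.3 and 65.9 CPM, and Ncl, a nucleolar protein of ribosome production, at 2405, 1102 and 1082 CPM. Fkbp11, Prtg, Ddx21 and Rpgrip1 completed the 10.

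Genes of the lists showed other courses. Six6, Rax and Hesx1, genes of the early eye field and forebrain, had log2 ratios at or under -1.09 in both E10.5 libraries, and Dkk1, an inhibitor of Wnt signals in the anterior embryo, stood at 23.0 CPM at E8.5 and at 5.37 and 4.74 CPM at E10.5. In the barcodes without Otx2, Six6 and Rax had ratios between 0.45 and 0.81, while Hesx1 had -0.84 and -0.57 and Dkk1 -0.38 and -0.60. Rspo3 had ratios of 2.095 and 1.94 in the progenitors and of 0.19 and 0.20 without Otx2. The stress and differentiation gene Gadd45g and the cell cycle inhibitor Cdkn1c, at 45.1, 184 and 199 CPM, were higher at E10.5, with ratios between 1.59 and 2.19 in the barcodes without Otx2. These differences between groups of barcodes were not tested.

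**Figure D5:**
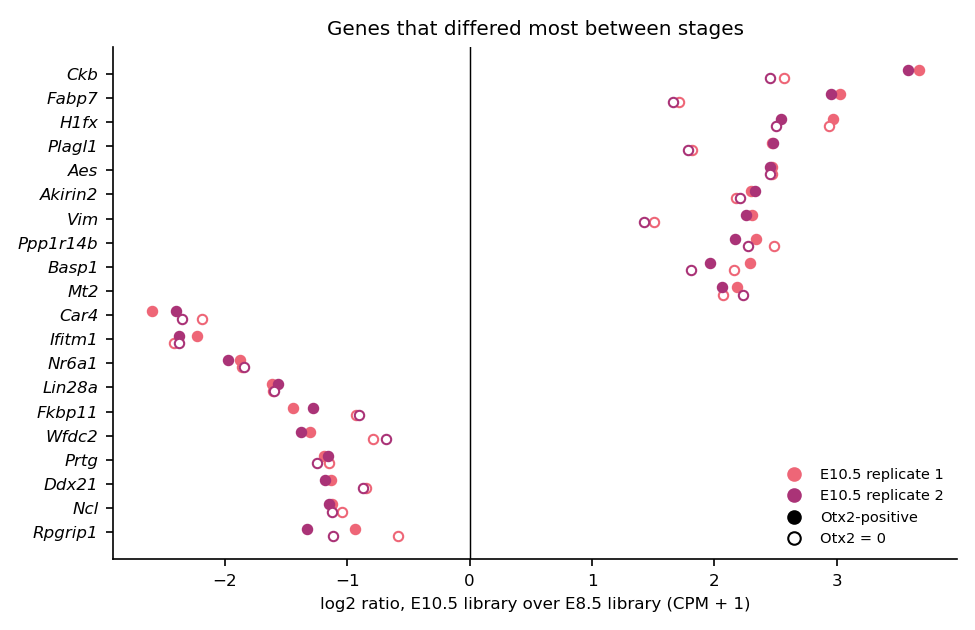
Log2 ratio (CPM + 1) of each E10.5 library to the E8.5 library for the 10 genes with the largest rise and the 10 with the largest fall in the Otx2-positive progenitors, with filled circles for the progenitors and open circles for the Sox2-positive barcodes without Otx2. For Aes, Akirin2, Nr6a1, Lin28a and Prtg the open and filled circles lie close together, and for Ckb, Fabp7, Plagl1 and Vim the filled circles lie farther from 0.

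OTX2 and related homeodomain proteins bind the sequence TAATCC. It was searched in both orientations in the RefSeq promoters of GRCm38.p6 given for this work, which reach from 250 bases before to 50 bases after a gene's start. Of all 27025 genes with such a promoter 8.14% held it, and of 10525 tested genes with one 6.79%. Among genes at least 2-fold higher in the progenitors the share was 12.7% (30 of 237 with a promoter), and among those at least 2-fold lower 5.24% (23 of 439). Of the leading and list genes that rose, 52 of 83 had a promoter and 3 held the motif, which is 5.77%. A match is a description of the letters and says nothing of binding. The promoters of the 2 with at least a 2-fold difference are shown, with the motif or its reverse complement in capitals, for Cntnap2, a neural adhesion protein at 90.4, 77.3 and 70.6 CPM against 7.02, 12.6 and 11.0 CPM (chr6:47244146-47244445, plus strand), and for Mitf (chr6:97929567-97929866, plus strand). RefSeq lists other starts for both genes, and both windows lie inside the gene, downstream of its first start.
Cntnap2: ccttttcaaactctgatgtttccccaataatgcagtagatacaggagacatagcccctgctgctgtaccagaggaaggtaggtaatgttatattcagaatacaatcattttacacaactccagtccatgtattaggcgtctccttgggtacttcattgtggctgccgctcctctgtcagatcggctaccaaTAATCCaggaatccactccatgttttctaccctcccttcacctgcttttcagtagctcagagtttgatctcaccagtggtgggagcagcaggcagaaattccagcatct
Mitf: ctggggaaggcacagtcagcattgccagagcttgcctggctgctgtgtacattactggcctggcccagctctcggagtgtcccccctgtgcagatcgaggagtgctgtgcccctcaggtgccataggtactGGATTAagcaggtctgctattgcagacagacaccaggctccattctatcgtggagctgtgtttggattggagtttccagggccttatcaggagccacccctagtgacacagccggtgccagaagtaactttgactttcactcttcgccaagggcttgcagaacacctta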

How the data were processed

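Embryos at E8.5 and E10.5, with head and limbs cut off, and hearts of later stages were profiled by droplet single-cell RNA sequencing. The authors deposited whole-number UMI counts per gene (27998) and barcode, not normalized, made with Cell Ranger (2.1.1 per the submitters' processing notes, 3.1.0 per the headers of the embryo files) on mm10. The labels name trypsin and v2 chemistry, the paper collagenase II and v3. All limits were applied to the deposited counts. Counts were summed per library and group, and the E10.5 sums, 2 libraries in each group, were tested with edgeR 4.0.16 (quasi-likelihood, TMM, filterByExpr, adjusted p under 0.05) without a block. The script was tested on simulated counts with known changes. E8.5 had 1 library and no test. Each library gave both groups, so the numbers pair the sums (correlation of deviations 0.15), and the blocked fit is in the closing section. Scrublet (scanpy 1.11.5) was made to mark 0.8% for each 1000 barcodes of a library, since its own threshold marked 3, 0 and 425. This and an alternative with at least 10000 UMIs in both groups were chosen after seeing the data. Named genes were the 4 markers and list genes, 12 leading genes each way and 10 per direction between stages. Members and lists were chosen with earlier results of these data known. Some genes of the lists were counted but are not reported here by name.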

Additional observations from a re-analysis of the deposited data

Results flagged for a closer look

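At E10.5, 7 of the list genes reported here passed the test in one direction, in both libraries, while the E8.5 ratio of the Otx2-positive progenitors to the barcodes without Otx2 had the other sign beyond its exact 95% counting interval. Over all 3435 genes that passed at E10.5, 2822 (82.2%) had an E8.5 ratio of the same sign. A differing sign was therefore not particular to these 7, each of which changed by less than 2-fold at E10.5. How many of all genes that passed lay beyond that interval with the other sign was not counted. The difference between the stages was not tested, and E8.5 had 1 library. The E8.5 log2 ratio was -1.19 for Fgf17 and -0.27 for Fgf8, isthmus ligands that were higher at E10.5. It was -0.76 for Nkx6-2, -0.65 for Vim and -0.78 for Fst, also higher at E10.5. The E10.5 change of Vim turned to -0.023 at 5000 UMIs, and Nkx6-2 lost its call in 6 of 17 alternative settings. The proneural gene Neurog1 had an E8.5 log2 ratio of 0.99 and the Notch ligand Dll1 one of 0.62. Both were lower at E10.5, by -0.55 and -0.34, and Dll1 lost its call in 8 of 17 alternative settings.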

How the results depend on the processing

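The counts of 1767 higher and 1668 lower genes at E10.5 were 997 and 899 with DESeq2. They were 237 and 302 with every barcode drawn down to 5000 UMIs, which kept 11797 genes in the test. That setting took any drawn Otx2 UMI as the limit, so its groups held other barcodes and depth was not the only change. Leaving out 1 of the 4 sums gave 853 to 1201 higher and 994 to 1104 lower genes, with the lone sum assumed to vary like the other group. The higher count was 1076 without replicate 2 of the progenitors, and 982 and 853 without replicates 1 and 2 of the barcodes without Otx2. With the library as a replicate block there were 2371 and 2375, and no named call was lost. The other settings stayed within 1.5 times of both counts. Of 211 list and leading genes that passed, 128 passed in the same direction under every setting, as did all 24 leading genes, while 70 did not pass at 5000 UMIs and 26 did not with DESeq2. At 5000 UMIs the log2 fold change changed sign for Prrx1 (0.059), Vim (-0.023), Foxa2 (0.094), Ccna2 (-0.025), Dlx5 (0.12), Tubb3 (-0.17), Zic2 (-0.031) and Ptch1 (0.0041). It did so too for Tubb3 (-0.95) without the limits on Epcam and the neuron genes in the barcodes without Otx2. The cause was not tested.

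The share of Otx2-positive progenitors was 8.54, 8.01 and 8.45% in the E8.5 library, E10.5 replicate 1 and E10.5 replicate 2 with 1 Otx2 UMI as the limit, and 4.24, 2.27 and 2.29% with 4. With 5000 UMIs as the lowest depth it was 6.02 and 6.12% at E10.5. The share with the forebrain list, 30.5, 25.8 and 26.2%, was 52.9, 39.8 and 40.8% without drawing down, 42.8, 36.8 and 36.0% with 1 UMI of the list as the limit and 18.8, 18.7 and 17.4% with 3. The share with the midbrain list, 18.0, 17.0 and 15.2%, was 51.6, 36.3 and 35.0%, then 32.6, 31.6 and 29.8%, then 12.3, 9.88 and 9.01%. Between the stages the 11 genes lower in both E10.5 libraries were 19 without replicate 1 and 17 without replicate 2. Depth also limits the classes of single barcodes, since 51.7 to 58.9% of the progenitors reached neither limit at 5000 UMIs.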

Other observations

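Of 12 genes of developmental timing at E10.5, 5 were higher in the Otx2-positive progenitors, 1 lower and 6 did not pass, none by 2-fold. Lin28a and Lin28b, RNA-binding proteins that hold back let-7 microRNAs, rose by 0.42 ± 0.05 and 0.34 ± 0.06 on the log2 scale (edgeR adjusted p = 0.00033 and 0.0027). The Iroquois genes Irx2, Irx3 and Irx5 did not pass, with log2 fold changes no larger than 0.09, whereas at E8.5 Irx3 stood at 26.2 CPM in the progenitors and 51.3 CPM without Otx2. Irx1 was higher by 0.70 ± 0.07. Among partners of homeodomain factors, Meis1 was lower at 20.8 and 21.1 CPM against 49.0 and 49.0 CPM (-1.25 ± 0.05).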
